A study of Mus musculus with 2 samples.

Results

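Lcn2, Saa3, Slpi, Wfdc17, Wfdc21, Chil1 and Hp code for secreted proteins of the acute-phase response and for inhibitors of proteases, and their levels were followed in tumor-associated neutrophils (TANs) and in the other cells sorted with them. These 7 genes, of 31053 in the matrix, were found by symbol. They were chosen by their measured levels in the same 2 libraries, so their difference between the libraries is described and not tested. The series holds 1 single-cell RNA library of Smad3-WT TANs (Smad3+/+) and 1 of Smad3-KO TANs (Smad3-/-), both from C57BL/6 mice aged 8 to 12 weeks. LLC cells, a mouse lung carcinoma line, had been inoculated subcutaneously in all mice, and CD11b+Ly6G+ cells were sorted from the digested tumors, 8 of which were mixed for each library. The deletion was carried by the host mice, and the same LLC line was given to both groups. The question put to these libraries was how loss of Smad3, a transducer of TGF-β signals, bears on the state of TANs.

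Acute-phase proteins are secreted in inflammation, and antiproteases curb the enzymes that neutrophils release. Lcn2 (lipocalin 2) withholds iron from bacteria by binding their siderophores. Saa3 is a serum amyloid A made outside the liver by macrophages, fibroblasts and fat cells under inflammation. Hp (haptoglobin) captures free hemoglobin. Slpi inhibits neutrophil elastase and cathepsin G, and the small proteins Wfdc17 and Wfdc21 carry the same four-disulfide WAP fold that Slpi has. Chil1 is a chitinase-like lectin that binds chitin without cutting it. NF-κB and C/EBP factors, which act downstream of IL-1, TNF and IL-6, are textbook regulators of acute-phase genes, while Smad3 binds DNA at short motifs that hold CAGAC.

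In the mm10 build, which the submitters also used, Lcn2 (ENSMUSG00000026822) lies at chr2:32384633-32388252 and Slpi (ENSMUSG00000017002) at chr2:164354070-164389095, both on the minus strand. Saa3 (ENSMUSG00000040026) lies at chr7:46711998-46715700 and Hp (ENSMUSG00000031722) at chr8:109575128-109579172, also on the minus strand. Chil1 (ENSMUSG00000064246) lies at chr1:134182176-134190181 on the plus strand. Wfdc17 (ENSMUSG00000069792, chr11:83703991-83706268) and Wfdc21 (ENSMUSG00000051748, chr11:83746940-83752642) are neighbors on the plus strand of chromosome 11. Between them lie 40671 bases that hold 1 other gene, Wfdc18. All 7 are annotated as protein-coding.

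Promoter windows, from 250 bases before to 50 bases after the start, were taken from RefSeq on GRCm38.p6 for Lcn2, Saa3, Slpi, Wfdc17 and Chil1. Wfdc21 and Hp had no entry. Each window was searched on both strands for the NF-κB letters GGNNTTTCC and GGNNTTCCC, the C/EBP letters TTGCNNAA, and the Smad letters CAGAC and GTCTAGAC. The NF-κB patterns differ at 1 fixed letter, so no stretch can match both. The 3 windows that held an NF-κB or C/EBP match are shown, so that the place of each match can be read from them. Capitals mark these matches:
Lcn2 (chr2:32387690-32387989, minus strand): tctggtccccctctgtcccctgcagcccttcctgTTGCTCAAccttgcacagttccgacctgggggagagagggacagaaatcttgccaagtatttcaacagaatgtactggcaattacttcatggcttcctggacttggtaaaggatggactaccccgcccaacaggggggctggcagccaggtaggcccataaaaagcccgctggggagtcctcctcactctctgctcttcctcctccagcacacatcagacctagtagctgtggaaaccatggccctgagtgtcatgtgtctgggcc
Saa3 (chr7:46715627-46715926, minus strand): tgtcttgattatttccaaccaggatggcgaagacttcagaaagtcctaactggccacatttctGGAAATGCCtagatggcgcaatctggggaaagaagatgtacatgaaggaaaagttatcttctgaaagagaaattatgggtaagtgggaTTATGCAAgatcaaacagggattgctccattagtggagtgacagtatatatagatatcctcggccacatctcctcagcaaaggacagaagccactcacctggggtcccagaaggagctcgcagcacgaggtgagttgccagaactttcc
Slpi (chr2:164356458-164356757, minus strand): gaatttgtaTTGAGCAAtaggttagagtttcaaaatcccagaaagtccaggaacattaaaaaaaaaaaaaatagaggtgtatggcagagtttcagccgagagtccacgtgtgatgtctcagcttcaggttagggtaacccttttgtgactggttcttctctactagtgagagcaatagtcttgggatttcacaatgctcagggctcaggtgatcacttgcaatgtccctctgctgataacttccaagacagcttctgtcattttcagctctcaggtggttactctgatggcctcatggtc
The C/EBP letters were found in 3 of the 5 windows searched, at position -216 from the start in Lcn2, -99 in Saa3 and -241 in Slpi. They occur in 10.8% of all 32851 mouse promoter windows. Whether the members hold them more often than other genes was not tested. An NF-κB match was found in Saa3, at position -187, and each of the NF-κB patterns occurs in 5.82% of all windows. CAGAC was found in Lcn2 only, at positions -1 and 41, although 49.6% of all windows hold it, and GTCTAGAC, present in 0.213% of windows, was in none of the 5. The Wfdc17 and Chil1 windows held none of these letters. The RefSeq windows of Lcn2 and Slpi lie inside the longer spans that the annotation above gives for these genes.

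The matrix holds counts of unique molecular identifiers (UMIs), 1 per captured transcript, and levels are UMIs summed over cells as CPM, the usual scaling by the total UMIs of those cells. After the filters on cells that the methods state, the Smad3-WT library kept 3520 cells (12176201 UMIs) and the Smad3-KO library 2433 cells (4146792 UMIs). Cells were clustered without the 7 genes and named from fixed marker lists. Neutrophil-like cells were 1886 Smad3-WT cells (median 749 UMIs per cell) and 1097 Smad3-KO cells (median 1019), and 10 of 11 neutrophil markers were detected in over 10% of them in each library. The remaining one was Ly6g, whose protein was the gate, with UMIs in 1.54% and 9.75% of cells. Macrophage or monocyte-like cells numbered 1031 and 110, dendritic-like cells 90 and 109, T cell-like cells 19 and 436, B cell-like cells 2 and 557, and fibroblast-like cells 49 and 69, despite the gate. Natural killer (NK) cell-like cells numbered 40 and 20. The LLC carcinoma-like cluster had 1 of its 5 markers in 10% of its 35 Smad3-KO cells, so its values were not compared. UMIs of Smad3 itself were at 14.6 CPM in the Smad3-WT and 77.4 CPM in the Smad3-KO library. The deleted part lies in later exons and 5′ tags read the start of transcripts, so these UMIs check nothing of the genotype. Xist stood at 0.657 CPM against 471 CPM, so the sex make-up of the pools differed and cannot be told apart from the genotype. The libraries shared 73 barcodes, and 24 of these passed the filter in both. With 1 library per genotype there was no replicate error, and every interval below is a 95% interval of counting error only. For levels and ratios UMIs are counted, and the spread between cells is left out. For shares cells are counted, as draws from 1 pool.

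**Figure D1:**
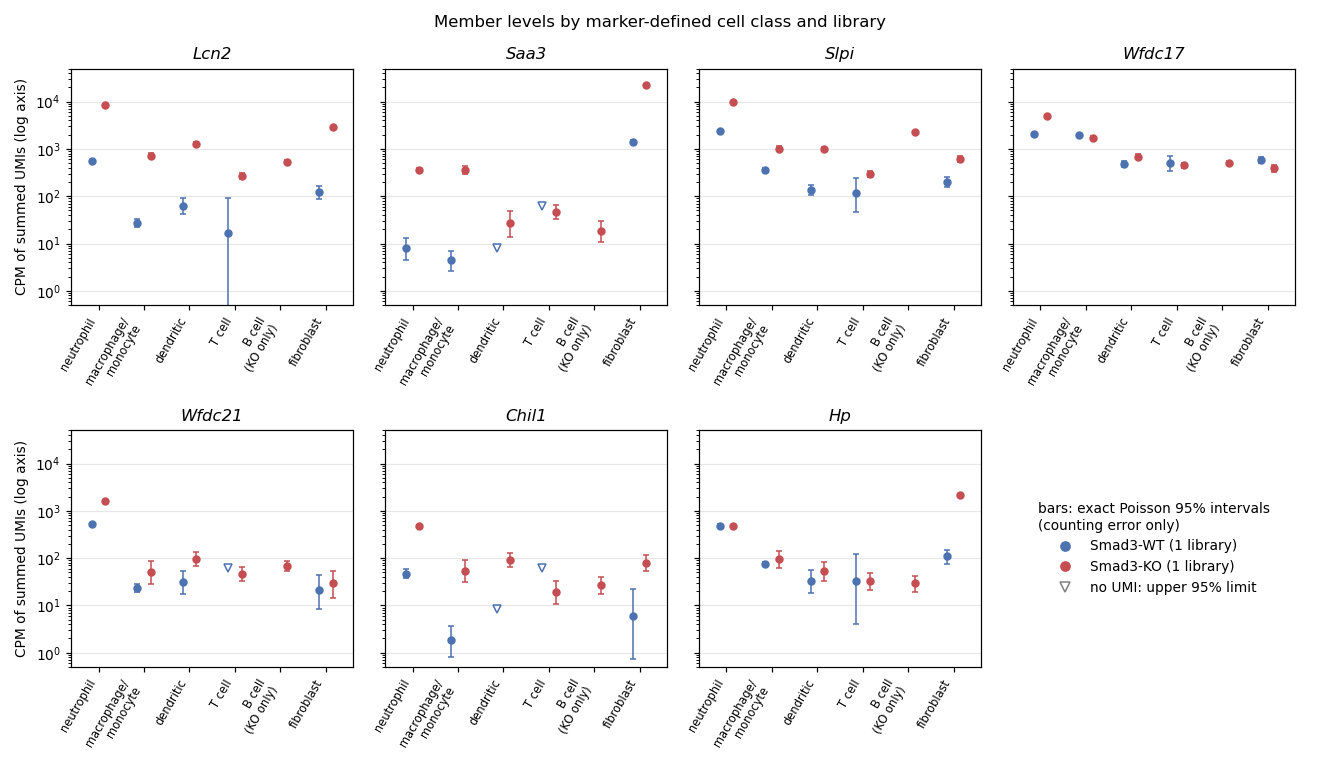
Levels of the 7 genes (CPM, log axis) in 6 marker-defined cell classes of the Smad3-WT (blue) and Smad3-KO (red) library, with exact Poisson 95% intervals. Saa3 is highest in fibroblast-like cells, and the other members but Hp are highest in Smad3-KO neutrophil-like cells.

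In neutrophil-like cells, 6 of the 7 genes were at least 2-fold higher in the Smad3-KO library and Hp was at the same level within counting error. The ratios of Smad3-KO to Smad3-WT ran from 0.956 for Hp to 45.8 for Saa3, with a median of 4.16. Of all 6648 genes with at least 20 UMIs in these cells, 6.62% were at least 2-fold higher in Smad3-KO and 22.4% at least 2-fold lower, and their median ratio was 0.739. The members were selected on this contrast, so the gap to these shares is not evidence about them. This holds for every such count below. In the Smad3-WT library most neutrophil-like cells fell in cluster 1 (1268 cells), and in the Smad3-KO library most fell in cluster 2 (863 cells), so the ratios compare different clusters in large part. The hemoglobin transcripts Hba-a1 and Hbb-bs were higher in Smad3-KO as well, with Hba-a1 at 534 CPM against 23.6 CPM in Smad3-WT neutrophil-like cells. Another hemoglobin gene, Hba-a2, was instead among the leading genes of cluster 4, with 489 Smad3-WT and 30 Smad3-KO cells. Its level by library was not taken. The median ratio was 4.14 without the cells that held a hemoglobin UMI, an alternative chosen after seeing the data.

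Among the antiproteases, Slpi had the most UMIs of the 7. Slpi stood at 2392 CPM (2323 to 2463) in Smad3-WT and 9949 CPM (9782 to 10118) in Smad3-KO cells, a ratio of 4.16 (4.02 to 4.30). Wfdc17 stood at 2084 CPM (2020 to 2150) and 5052 CPM (4934 to 5173), a ratio of 2.42 (2.33 to 2.52). Its neighbor Wfdc21 stood at 519 CPM (487 to 553) and 1605 CPM (1538 to 1673), a ratio of 3.09 (2.87 to 3.33). All 3 intervals of the Smad3-KO library lay above those of the Smad3-WT library. For Wfdc21, 62 Smad3-KO cells that led with granule genes carried a large part of the gap. Without them its ratio was 1.91 (1.76 to 2.08).

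Of the acute-phase genes, Lcn2 combined a high level with a large ratio. Lcn2 stood at 545 CPM (512 to 579) in Smad3-WT and 8474 CPM (8320 to 8629) in Smad3-KO cells, a ratio of 15.5 (14.6 to 16.6). Saa3 was rare in these cells, at 7.87 CPM (15 UMIs) and 360 CPM (492 UMIs), a ratio of 45.8 (27.5 to 82.4). Hp stood at 489 CPM (458 to 522) and 468 CPM (432 to 505), with overlapping intervals and a ratio of 0.956 (0.863 to 1.06). Without the granule-gene cells the Hp ratio was 0.721 (0.641 to 0.809), so the direction for Hp rested on which clusters entered. The chitinase-like gene Chil1 stood at 47.2 CPM (38.0 to 58.0) and 474 CPM (438 to 512), a ratio of 10.0 (8.05 to 12.7).

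The gap was seen in the number of positive cells as well as in the sum. After each cell was drawn down to 500 UMIs, which equalizes depth and left out no cell, Lcn2 had a UMI in 15.5% of Smad3-WT (13.9 to 17.3) and 75.6% of Smad3-KO neutrophil-like cells (72.9 to 78.1, exact Clopper-Pearson intervals). At full depth these shares were 21.4% and 81.7%. Slpi was detected in 48.9% and 86.2% of thinned cells, Wfdc17 in 33.5% and 60.2%, and Wfdc21 in 18.3% and 36.0%. Chil1 was detected in 2.28% and 18.3%, and Saa3 in 0.212% and 6.02%. Hp had shares of 21% and 19%, with overlapping intervals. The unthinned shares were 60.7% and 93.3% for Slpi, 42.7% and 71.7% for Wfdc17, 28.3% and 51.5% for Wfdc21, 3.98% and 35.3% for Chil1, 0.477% and 8.48% for Saa3, and 30.4% and 28.5% for Hp. T cell-like and B cell-like cells give shares to set beside those, since free RNA or mixed droplets can add UMIs. In thinned Smad3-KO T cell-like cells (median 1339 UMIs before thinning) it was 5.50% for Lcn2, 6.88% for Slpi, 7.57% for Wfdc17, 1.61% for Wfdc21, 0.688% for Chil1, 1.15% for Saa3 and 0.459% for Hp. In thinned Smad3-KO B cell-like cells the share was 10.1% for Lcn2, 12.4% for Slpi, 8.26% for Wfdc17 and 2.87% for Wfdc21. It was 0.898% for Chil1, 0.898% for Saa3 and 0.539% for Hp there. Every Smad3-KO neutrophil-like share lay above the share of the same gene in T cell-like and in B cell-like cells of the same library. The part of free RNA in these shares was not tested. The Smad3-WT library had 19 T cell-like and 2 B cell-like cells, too few to set beside its shares.

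Single cells differed widely in these genes. The top 10% of Smad3-KO neutrophil-like cells held 38.2% of their Lcn2 UMIs and 38.5% of their Slpi UMIs, while the top 10% of Smad3-WT cells held 78.4% and 50.3%. For Saa3, the UMIs of Smad3-KO neutrophil-like cells lay in 93 cells, and a single cell held 8.74% of them. The median Smad3-KO neutrophil-like cell had 7 UMIs of Lcn2 and 7 of Slpi, against 0 and 1 in Smad3-WT.

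**Figure D2:**
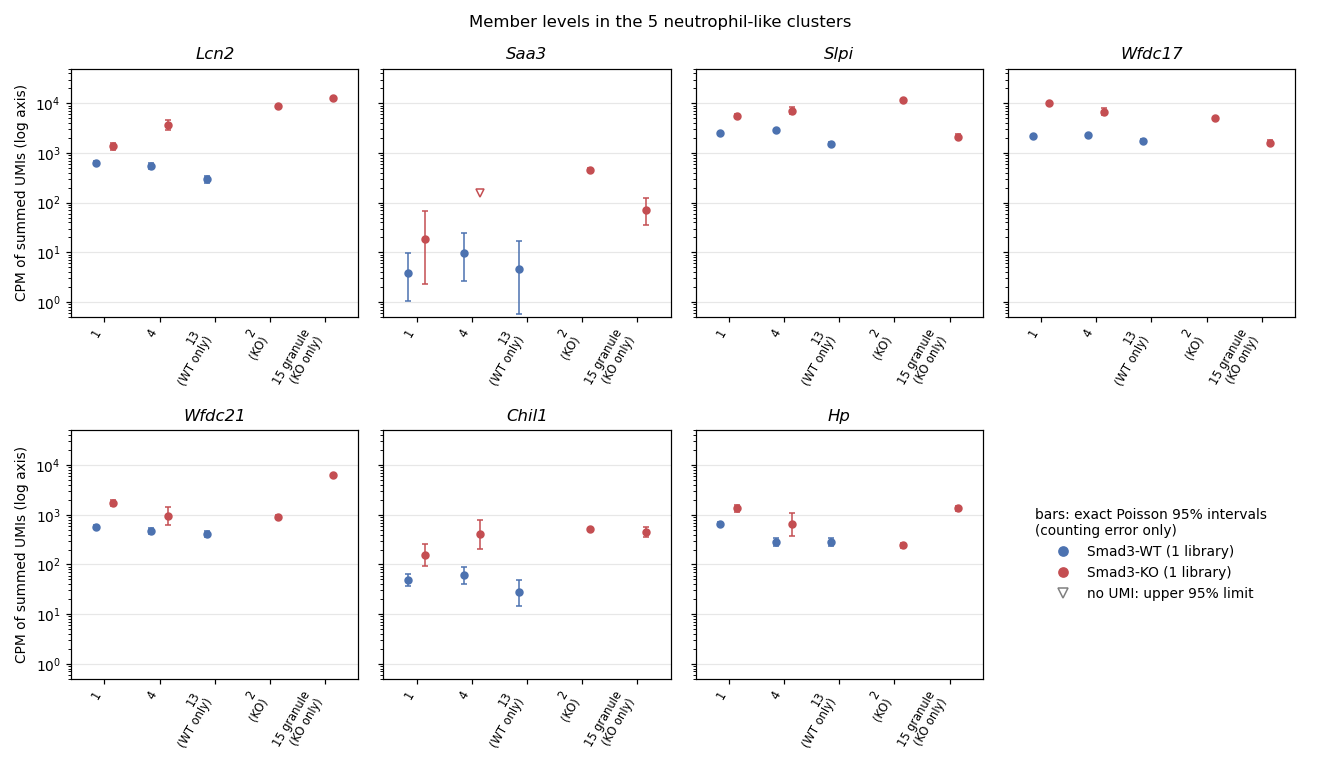
Levels of the 7 genes (CPM, log axis) in the 5 neutrophil-like clusters by library, with exact Poisson 95% intervals. Clusters 1 and 4 hold cells of both libraries, cluster 13 holds only Smad3-WT cells, and cluster 15 only Smad3-KO cells. The 17 Smad3-WT cells of cluster 2 are not drawn.

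Cluster 1 was the one neutrophil-like cluster with at least 100 cells of each library (1268 Smad3-WT and 142 Smad3-KO cells), and this comparison was chosen after the clusters had been seen. Within it all 7 genes were at least 2-fold higher in Smad3-KO cells, and the median ratio was 2.96. Of the 7, 6 reached 20 UMIs over both libraries, and Saa3 did not. Of 4209 genes with at least 20 UMIs there, 9.38% were at least 2-fold higher and 24.5% at least 2-fold lower in Smad3-KO. The order of the members was not that of the whole class. Wfdc17 had the largest ratio among members with over 20 UMIs, at 9930 CPM (9343 to 10544) against 2165 CPM (2077 to 2257), a ratio of 4.59 (4.26 to 4.93). Chil1 had a ratio of 3.23 (1.75 to 5.69), Wfdc21 of 2.96 (2.50 to 3.50), Slpi of 2.19 (2 to 2.4), and Hp of 2.05 (1.70 to 2.45). Lcn2 had a ratio of 2.14 (1.77 to 2.56), at 1349 CPM against 632 CPM, far below its 15.5 in all neutrophil-like cells. Saa3 rested on 2 and 4 UMIs, a ratio of 4.85 (0.439 to 33.8).

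Cluster 4, whose leading genes included the interferon-induced Ifit3, held 489 Smad3-WT and 30 Smad3-KO cells. Lcn2 had a ratio of 6.77 (5.23 to 8.69) there, Chil1 of 6.80 (2.93 to 14.6), Wfdc17 of 2.99 (2.52 to 3.54), Slpi of 2.53 (2.14 to 2.97), Hp of 2.40 (1.33 to 4.06) and Wfdc21 of 2.02 (1.25 to 3.12). Saa3 had 0 UMIs in the 30 Smad3-KO cells, which allows up to 125 CPM, and 4 UMIs in the Smad3-WT cells. Hp thus was higher in Smad3-KO within each of the clusters that both libraries filled. Over the class as a whole, scaled by total UMIs, Hp did not differ beyond counting error. That result depended on the processing, with a ratio above 1 in 5 of 19 alternatives.

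Cluster 2, whose leading genes included Hba-a1, Stfa2, Il1a and Csf3, had high Lcn2 and Slpi with low Hp in its Smad3-KO cells. In these 863 cells Lcn2 stood at 8642 CPM (8467 to 8819), Slpi at 11594 CPM (11392 to 11800), Wfdc17 at 5035 CPM, Wfdc21 at 921 CPM, Chil1 at 511 CPM, Saa3 at 445 CPM and Hp at 244 CPM (216 to 276). The 17 Smad3-WT cells of the same cluster had 1891 CPM of Lcn2 (1236 to 2771) and 2692 CPM of Slpi (1895 to 3710), and 0 Hp UMIs. Of the Saa3 UMIs of neutrophil-like cells in the Smad3-KO library, 479 of 492 lay in cluster 2.

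The granule-gene cells of cluster 15, 62 cells that all came from the Smad3-KO library, showed another order. Camp, Ngp and Ltf, which code for proteins of secondary granules, led the cluster. Lcn2 stood at 12885 CPM (12332 to 13457), the highest level of any cluster, and Wfdc21 at 6266 CPM (5882 to 6668), and all 62 cells had a UMI of both. Hp stood at 1344 CPM (1170 to 1537) and was detected in 90.3% of these cells. Slpi, at 2114 CPM (1894 to 2353), and Wfdc17, at 1609 CPM (1418 to 1819), were below their levels in every other Smad3-KO neutrophil-like cluster. Chil1 stood at 448 CPM and Saa3 at 69.4 CPM. Lcn2 and haptoglobin proteins are known to be stored in the granules of maturing neutrophils. Cluster 13 held 112 Smad3-WT cells and no Smad3-KO cell, and there Slpi stood at 1514 CPM, Wfdc17 at 1776 CPM and Lcn2 at 292 CPM.

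Fibroblast-like cells were the main holders of Saa3. In the Smad3-KO library 92.4% of all Saa3 UMIs lay in these 69 cells, and in the Smad3-WT library 86.7% lay in 49 cells. Saa3 stood at 1425 CPM (1300 to 1560) in Smad3-WT and 22191 CPM (21717 to 22672) in Smad3-KO fibroblast-like cells, a ratio of 15.6 (14.2 to 17.1). Hp stood at 109 CPM (76.3 to 151) and 2115 CPM (1970 to 2267), a ratio of 19.4 (13.9 to 27.9), and in the Smad3-KO library fibroblast-like cells held 51.6% of all Hp UMIs against 41.5% in neutrophil-like cells. Lcn2 stood at 121 CPM (86.5 to 165) and 2844 CPM (2676 to 3020), a ratio of 23.5 (17.1 to 33.1). Chil1 had a ratio of 13.2 (3.35 to 114), Slpi of 3.08 (2.33 to 4.11), Wfdc21 of 1.38 (0.490 to 4.21) and Wfdc17 of 0.672 (0.537 to 0.838). So 5 of 7 members were at least 2-fold higher in Smad3-KO. Of 4931 genes with at least 20 UMIs there, 8.9% were at least 2-fold higher and 7.24% at least 2-fold lower. Wfdc21, on 11 and 7 UMIs, was below that threshold.

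These fibroblast ratios rested on a part of the cells. One Smad3-KO cell held 12.1% of the Saa3 UMIs, with 1009 UMIs, and the top 10% of cells held 54.5%. With each cell thinned to 500 UMIs, the ratio was 2.65 (2.17 to 3.25) for Saa3, 3 (1.62 to 5.99) for Hp and 2.09 (1.24 to 3.67) for Lcn2, and Slpi turned to 0.659 (0.285 to 1.51). Saa3 was detected in 18.4% of thinned Smad3-WT (8.76 to 32) and 43.5% of thinned Smad3-KO fibroblast-like cells (31.6 to 56.0), Hp in 10.2% and 20.3%, and Lcn2 in 12.2% and 26.1%. The interval for Saa3 overlapped by a narrow margin and those for Hp and Lcn2 overlapped widely. Without barcodes found in both libraries, an alternative not planned beforehand, the Lcn2 ratio was 44.6 and that of Hp 34.4.

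UMIs of neutrophil markers were found in the other classes, and the members were set beside them. In Smad3-KO fibroblast-like cells, the levels of 11 neutrophil markers were a median of 0.0218 of their levels in neutrophil-like cells, with a highest value of 0.115. For Saa3 this quotient was 61.6, for Hp 4.52, for Lcn2 0.336 and for Chil1 0.168, all above the highest neutrophil marker. Slpi, at 0.0618, Wfdc17, at 0.0764, and Wfdc21, at 0.0183, lay within the range of the markers. In Smad3-WT fibroblast-like cells the highest marker was at 0.0722, and Slpi (0.0835), Wfdc17 (0.276), Lcn2 (0.222), Hp (0.223), Chil1 (0.128) and Saa3 (181) lay above it, while Wfdc21 (0.0408) did not. Chil1 and Wfdc21 rested on 2 and 7 UMIs in these cells, too few to place them against the markers. The Saa3 quotient rested on 15 UMIs in neutrophil-like cells. In the other direction, 6 fibroblast markers in Smad3-KO neutrophil-like cells reached at most 0.000685 of their fibroblast level, and Saa3 reached 0.0162.

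In macrophage or monocyte-like cells, 5 of 7 members were at least 2-fold higher in Smad3-KO cells, and the median ratio was 2.75. The median was 9.01 with cells classed one by one from their marker UMIs, where the Lcn2 ratio was 94, and Wfdc21 turned to 0.728 at a clustering resolution of 0.5, where the Lcn2 ratio was 13.4. Of 9131 genes there, 12.1% were at least 2-fold higher and 13.5% at least 2-fold lower. Saa3 stood at 4.41 CPM (19 UMIs) and 364 CPM (100 UMIs), a ratio of 82.6 (50.2 to 143). Lcn2 stood at 26.9 CPM and 725 CPM, a ratio of 26.9 (21.3 to 34.2), and Slpi at 367 CPM and 1009 CPM, a ratio of 2.75 (2.41 to 3.12). Chil1 had 8 and 15 UMIs, a ratio of 29.4 (11.7 to 80.2), Wfdc21 a ratio of 2.13 (1.13 to 3.74) and Hp of 1.26 (0.810 to 1.88). The quotients of Lcn2 (0.0856), Slpi (0.101), Chil1 (0.115), Wfdc21 (0.0318) and Hp (0.203) against Smad3-KO neutrophil-like cells all lay within the range of the 11 neutrophil markers, 0.0203 to 0.204, and those of Saa3 (1.01) and Wfdc17 (0.343) lay above it. In the Smad3-WT library, where the markers ran from 0.0454 to 0.0947, Slpi (0.154), Hp (0.154), Saa3 (0.561) and Wfdc17 (0.928) lay above the range, Lcn2 (0.0494) and Wfdc21 (0.046) within it, and Chil1 (0.0393) below it. The part of neutrophil RNA in these levels was not tested.

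Wfdc17 was the member that macrophage or monocyte-like cells held in quantity. It stood at 1935 CPM (1894 to 1977) in Smad3-WT and 1731 CPM (1579 to 1894) in Smad3-KO, a ratio of 0.895 (0.814 to 0.981). With each cell weighted equally the ratio was 1.17, so the direction was not settled. In the Smad3-WT library 60.2% of Wfdc17 UMIs lay in these cells and 28.7% in neutrophil-like cells, whereas in the Smad3-KO library 5.5% and 80.0% did. Such shares depend on class make-up as well as on level. Macrophage or monocyte-like cells held 35.4% of the UMIs of all genes in Smad3-WT and 6.62% in Smad3-KO. Neutrophil-like cells held 15.7% and 33% of them. The highest Smad3-WT level of any cluster was 3996 CPM (3884 to 4111), in cluster 8, which the complement genes C1qa, C1qb and C1qc mark. The 27 Smad3-KO cells of cluster 8 had 2991 CPM (2555 to 3481).

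B cell-like cells held 12.6% of the Smad3-KO Slpi UMIs, the largest share after neutrophil-like cells, while dendritic-like and T cell-like cells held 2.35% and 1.29%. Of the Smad3-KO Wfdc17 UMIs, 5.48% lay in B cell-like, 3.81% in T cell-like and 3.1% in dendritic-like cells. In Smad3-KO dendritic-like cells Lcn2 stood at 1260 CPM and Slpi at 1004 CPM, quotients of 0.149 and 0.101 within the 0.0282 to 0.197 of the neutrophil markers. For Smad3-KO T cell-like cells the quotients of Saa3 (0.13), Wfdc17 (0.0893) and Hp (0.0704) lay above the highest marker, 0.0672. Those of the other members lay within the range of the markers there. Slpi in Smad3-KO B cell-like cells stood at 2302 CPM (2205 to 2402), a quotient of 0.231 above the highest marker, 0.076, as was Wfdc17 at 0.102. Most of it lay in cluster 17, 47 cells led by Jchain and Igha, genes of antibody-secreting cells, at 7945 CPM. A single cell held 698 of the 1518 Slpi UMIs there, or 46.0%, and 16 cells had any, so the level hung on few cells. In NK cell-like cells, Wfdc17 had 1 UMI in Smad3-KO and 163 in Smad3-WT, a ratio of 0.0243 (0.000611 to 0.137). A single Smad3-WT cell held 73.6% of the 163. Slpi had 3 and 23 UMIs there, a ratio of 0.516 (0.0991 to 1.71), and the other members had fewer than 20 UMIs.

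**Figure D3:**
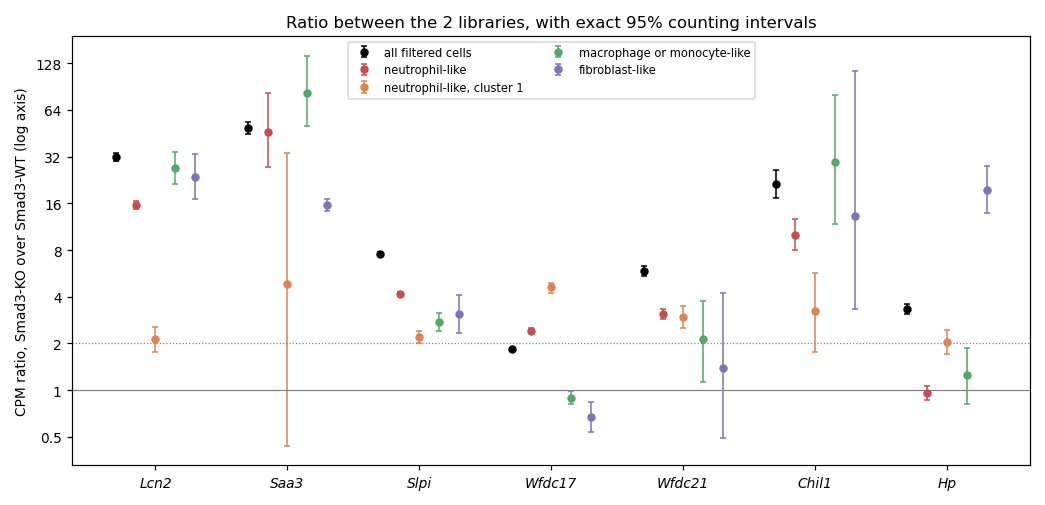
Ratio of CPM in the Smad3-KO over the Smad3-WT library for each of the 7 genes in 5 sets of cells, with exact 95% counting intervals (log axis, dotted line at 2-fold). Wfdc17 lies above 2 in neutrophil-like cells and below 1 in macrophage or monocyte-like and fibroblast-like cells, and Hp lies near 1 in neutrophil-like cells and at 19.4 in fibroblast-like cells.

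Over all filtered cells, whose make-up by class differed between the libraries, 6 of 7 members were at least 2-fold higher in Smad3-KO, where 16.3% of 12612 genes were at least 2-fold higher and 15.4% at least 2-fold lower. The median ratio was 7.51. Wfdc17, at 1.83 (1.78 to 1.88), was the exception. Hp had a ratio of 3.32 (3.09 to 3.58) in this sum, against 0.956 in neutrophil-like cells, and fibroblast-like cells held most of its Smad3-KO UMIs. The direction for Hp turned when cells counted alike, with 0.804 (0.703 to 0.919) in thinned cells and 0.795 as a mean over cells, and the median ratio was 3.43 and 3.44 under these settings.

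**Figure D4:**
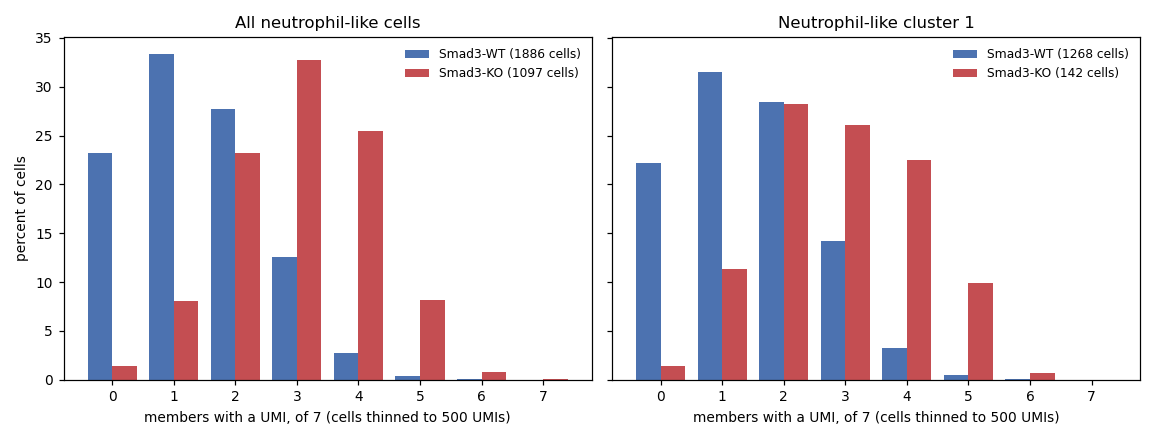
Percent of neutrophil-like cells (left, all; right, cluster 1) by the number of the 7 genes with a UMI, after thinning to 500 UMIs, for the Smad3-WT (blue) and Smad3-KO (red) library. The Smad3-WT cells center on 1 member and the Smad3-KO cells on 3.

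Members were detected together more often in Smad3-KO cells. Of thinned Smad3-WT neutrophil-like cells 15.8% had a UMI of at least 3 members, and of Smad3-KO cells 67.4% did, with a median of 1 and 3 members per cell. In cluster 1 the shares were 18.0% and 59.2%. At the other end, none of the 7 was seen in 23.2% of the Smad3-WT and 1.37% of the Smad3-KO cells. These shares can follow from the higher level of 6 members, all but Hp, and do not show that members go together within a cell. Across Smad3-KO neutrophil-like cells, Pearson's r between members ran from -0.097 (Slpi and Wfdc21) to 0.22 (Wfdc21 and Hp). In Smad3-WT cells, without Saa3, r ran from -0.033 (Lcn2 and Wfdc17) to 0.13 (Lcn2 and Wfdc21).

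The authors' table of 13 clusters, made over both libraries, gives an average for each gene on a scale where all genes of a cluster sum to 1311. These are the authors' averages, with no spread. Lcn2 ran from 0.00322 in cluster 11, where the keratin gene Krt8 was highest (0.565), to 12.9 in cluster 3. Slpi, at 16.6, Wfdc17, at 6.26, and Chil1, at 0.748, were highest in cluster 3 too. Wfdc21 was highest, at 2.42, in cluster 10, which had the highest Camp (10.1), and Lcn2 stood at 5.04 there. Hp was highest, at 1.46, in cluster 6, which had the most Retnlg (5.63), a gene of neutrophils. Saa3 was highest, at 1.40, in cluster 2, where the collagen gene Col1a1 was highest (1.63), and was at 0.654 in cluster 3. Krt8 stood at 0.313 in cluster 2, below cluster 11 only, and C1qb at 0.317, so cluster 2 cannot be read as fibroblasts alone. Slpi in cluster 8, with the highest Cd79a (2.95) and Jchain (2.66), stood at 2.88, while Lcn2 stood at 0.426.

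**Figure D5:**
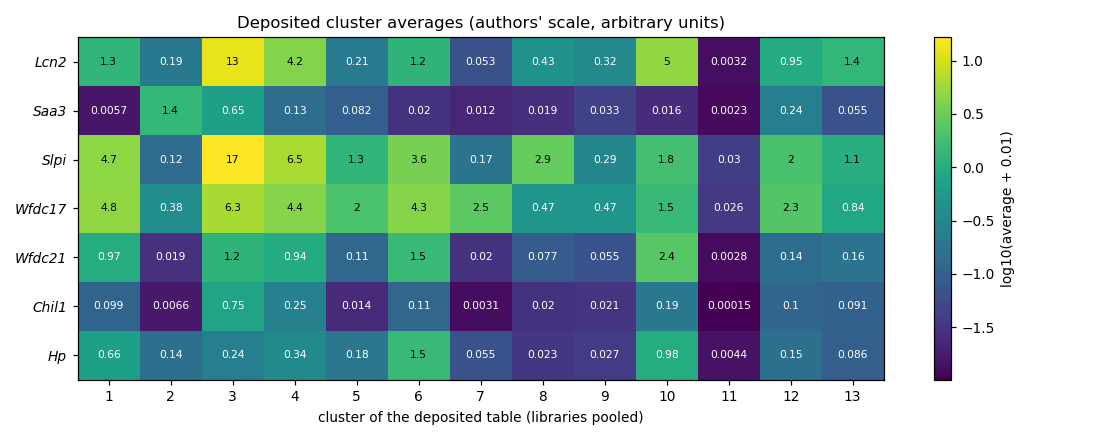
The authors' averages of the 7 genes in their 13 clusters (numbers, arbitrary units, libraries pooled), colored by log10(average + 0.01). Lcn2, Slpi, Wfdc17 and Chil1 peak in cluster 3, Wfdc21 in cluster 10, Hp in cluster 6 and Saa3 in cluster 2.

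Likeness over the 13 clusters was measured as Pearson's r of log2(average + 0.01), as a description, since the clusters share libraries and depth. Among the members, Lcn2 and Chil1 were most alike (r = 0.957), followed by Lcn2 and Wfdc21 (r = 0.894). Saa3 stood apart, with r from 0.0186 with Wfdc21 to 0.339 with Lcn2. With 0.1 added in place of 0.01, Lcn2 and Chil1 stayed most alike (r = 0.948). Wfdc21 and Hp then came second (r = 0.886), above Lcn2 and Wfdc21 (r = 0.862). Saa3 then ran from -0.0646 with Wfdc21 to 0.305 with Chil1. Over 7344 other genes with at least 200 UMIs, and with 0.01 added, the 5 most like Lcn2 were Chm, Tnf, Ccrl2, Zfyve26 and Stxbp5 (r from 0.947 to 0.931). Those most like Chil1 were Tnf, Gadd45b, Zfyve26, Ccrl2 and Kdm3a (0.969 to 0.951), of which Tnf, Zfyve26 and Ccrl2 were also on the Lcn2 list. Slpi was closest to Trim30d, Iqsec1, Acod1, Samd9l and Skil (0.974 to 0.959), and Wfdc17 to Slc15a3, Il10rb, Fcer1g, Lilr4b and Ifitm1 (0.956 to 0.946). Wfdc21 was closest to Hist2h2aa1, S100a9, S100a8, Lrg1 and Retnlg (0.985 to 0.974), and Hp to Egr1, Mmp9, Il1r2, Osm and Cxcr2 (0.956 to 0.940). Saa3 was closest to Serpinb2, Ctsk, Nos2, Dpt and Col1a1 (0.859 to 0.691), among them the fibroblast genes Col1a1 and Dpt. With 0.1 added, every list changed in part. Chil1 was then closest to Tnf, Rab11fip1, Gadd45b, Tmem38b and Nfkbia. Ccrl2 left the Lcn2 list, which then shared Tnf and Gadd45b with that of Chil1. Egr1, Osm and Cxcr2 left the Hp list, and Iqsec1, Samd9l and Skil the Slpi list. S100a9 and Lrg1 left the Wfdc21 list, Slc15a3 and Ifitm1 that of Wfdc17, and Nos2 that of Saa3.

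Other genes of the same families and pathways were followed in neutrophil-like cells, where the median ratio of all tested genes was 0.739. Of all tested genes there, 6.62% were at least 2-fold higher and 22.4% at least 2-fold lower in Smad3-KO. These shares stand beside the counts of every list below. The lists were chosen with earlier results of these data known, so their counts are a description only. Of 24 other protease inhibitors 15 reached 20 UMIs, and 6 were at least 2-fold higher and 6 at least 2-fold lower in Smad3-KO, with a median ratio of 1.18. Stefins, small inhibitors of cysteine cathepsins, lay on both sides. Stfa2 stood at 181 CPM against 6.82 CPM, a ratio of 26.6 (15.3 to 50.7), and BC100530 at 472 CPM against 29.9 CPM, a ratio of 15.8 (12.0 to 21.1). BC117090 had 380 UMIs in Smad3-KO and 1 in Smad3-WT cells, a ratio of 530 (94.6 to 20995), whereas Stfa1 stood at 2.20 CPM against 73.4 CPM, a ratio of 0.0299 (0.00609 to 0.0892). Stfa2l1, at 1.73 (1.59 to 1.87), and Cstb, at 0.838 (0.793 to 0.885), differed by less than 2-fold. The stefin genes other than Cstb are near copies of each other, so reads could be split between them. Serpinb2, an intracellular serpin, had 170 and 8 UMIs, a ratio of 29.6 (14.7 to 69.8). Cst3 (cystatin C), which was highest in dendritic-like cells, had a ratio of 0.250 (0.222 to 0.282). None of the 17 other WFDC genes reached 20 UMIs.

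Of 24 other acute-phase genes 5 reached 20 UMIs, with 2 at least 2-fold higher and 2 at least 2-fold lower. Lrg1, a secreted glycoprotein of neutrophil granules, stood at 527 CPM against 219 CPM, a ratio of 2.40 (2.13 to 2.72). The metallothionein gene Mt1 stood at 32.9 CPM against 178 CPM, a ratio of 0.185 (0.133 to 0.253), and the complement gene C3 had a ratio of 1.25 (1.09 to 1.44). Of 7 chitinase-family genes 2 were tested, with 1 at least 2-fold higher and 1 at least 2-fold lower. Ctbs (chitobiase) had 10 and 32 UMIs, a ratio of 0.436 (0.191 to 0.909). Chil3, the chitinase-like Ym1, stood at 285 CPM against 29.4 CPM, a ratio of 9.69 (7.31 to 13.1). Chil3 was among the leading genes of the granule-gene cluster 15, which held no Smad3-WT cell. Its ratio without those cells was not taken, whereas that of Chil1 was 10.1 (8.09 to 12.8) without them.

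Of 10 neutrophil proteases 5 were tested, with 1 at least 2-fold higher and 1 at least 2-fold lower. Mmp25, a membrane-bound metalloprotease, had 33 and 18 UMIs, a ratio of 2.56 (1.40 to 4.82), and Mmp8 (collagenase) was at 1.69 (1.41 to 2.03). Like Chil3, Mmp8 was among the leading genes of cluster 15. Mmp9 (gelatinase B) was lower, at 395 CPM against 1073 CPM, a ratio of 0.368 (0.334 to 0.405). Among 15 receptors and partners of the members 10 were tested, with 2 at least 2-fold higher, the hemoglobin genes Hba-a1 at 22.6 (16.7 to 31.3) and Hbb-bs at 4.75 (4.12 to 5.51), and 2 lower, of which Tlr4 had a ratio of 0.280 (0.229 to 0.340).

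Among 36 inducers and regulators 32 were tested, with 10 at least 2-fold higher and 4 at least 2-fold lower, and a median ratio of 1.13. The cytokine genes Csf3, at 42.7 (24.7 to 80.9), Il1a, at 12.5 (10.2 to 15.4), and Tnf, at 4.32 (3.82 to 4.89), were higher in Smad3-KO, while Il1b was at 1.09 (1.06 to 1.11). Smad3 itself had a ratio of 10.4 (7.16 to 15.7) in these cells. The receptor gene Tnfrsf1b was at 4.84 (4.39 to 5.34). Of the IκB family, Nfkbia was at 4.07 (3.92 to 4.23), Nfkbiz at 3.27 (3.04 to 3.53) and Bcl3 at 1.42 (1.15 to 1.74). Of the NF-κB subunit genes, Nfkb1 was at 2.01 (1.64 to 2.48), Nfkb2 at 2.91 (2.27 to 3.75), Relb at 1.99 (1.52 to 2.61) and Rela at 1.17 (0.908 to 1.51). The lower genes past 200 UMIs were Osm, at 0.302 (0.276 to 0.329), Tgfb1, at 0.374 (0.307 to 0.453), and Socs3, at 0.440 (0.397 to 0.486). Cebpb, coding for a C/EBP factor, was at 0.889 (0.863 to 0.917).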

How the data were processed

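CD11b+Ly6G+ cells of 1 Smad3-WT and 1 Smad3-KO pool of tumors were profiled with a 5′ single-cell kit. In the deposited matrix each value is the count of UMIs of a gene in a barcode, made by the authors with Cell Ranger 3.0.2 on mm10. The deposited averages of the libraries are a signal, the UMIs of a gene over those of the library times a constant, and identified the library of each barcode suffix, with differences of at most 3.58e-08 over 19114 genes. The log2 fold changes and p-values in the deposited tables are comparisons by the authors and were not used. The members and lists were chosen with earlier results of these data known.

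The filter on cells followed the study's methods, with 200 or more genes, a mitochondrial share below 10%, and between 500 and 20000 UMIs. The upper limit took out 382 cells of the Smad3-WT library and 0 of the other. Clusters came from 2000 variable genes without the members, 100 principal components, 15 neighbors and the Louvain method (resolution 1.0, seed 1, igraph 0.11.9, scikit-learn 1.9.0). A cluster was named when at least 3 markers of a list were in 10% of its cells at 2 times the level of other cells. No doublet caller was run. Ratios carry exact conditional intervals, shares Clopper-Pearson intervals and levels Poisson intervals at 95%, computed with scipy 1.17.1. The code for the ratio intervals was run on simulated Poisson counts, the model that these intervals assume. The simulated counts lacked the uneven spread of UMIs over cells, so that check says nothing about it. No genotype was tested, since each had 1 library. Named genes were the members, the 5 closest genes per member over the deposited clusters, cell markers, and per list up to 4 genes per direction with at least 200 UMIs and a 2-fold ratio, besides genes a result turned on. C3, Stfa1, Stfa2l1, Cstb, Serpinb2, Ctbs, Mmp8, Mmp25, Il1b, Tnf, Nfkbia, Nfkbiz, Bcl3, Nfkb1, Nfkb2, Rela, Relb and Cebpb were named after their values were seen, as were the genes shown for the deposited clusters. Alternatives covered filters, scaling, thinning, clustering and subsets of cells.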

Additional observations from a re-analysis of the deposited data

Results flagged for a closer look

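The ratio of Smad3-KO to Smad3-WT for Wfdc17 was above 1 in some classes and below 1 in others. It was 2.42 in neutrophil-like cells, 4.59 in cluster 1 and 1.39 in dendritic-like cells, but 0.895 for macrophage or monocyte-like cells and 0.672 for fibroblast-like ones. The difference between these ratios was not tested, since each genotype has 1 library. As a mean over cells, the macrophage or monocyte-like ratio was 1.17 and the fibroblast-like ratio 1.56. With each cell thinned to 500 UMIs they were 1.08 (0.862 to 1.33) and 0.794 (0.391 to 1.63). In T cell-like cells the Wfdc17 ratio was 0.909 (0.625 to 1.37), with an interval that held 1. The Smad3-WT level there rested on 30 UMIs in 19 cells, and a single cell held 76.7% of them. In NK cell-like cells the Wfdc17 ratio was 0.0243 (0.000611 to 0.137), on 1 and 163 UMIs.

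Hp was lower in Smad3-KO neutrophil-like cells without the granule-gene cells, with a ratio of 0.721, and higher in cluster 1 and in fibroblast-like cells, with ratios of 2.05 and 19.4. This difference was not tested either. In Smad3-KO cells Hp stood at 244 CPM in cluster 2, which held most of the cells, and at 1368 CPM in cluster 1.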

How the results depend on the processing

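The median member ratio stayed above 1 in neutrophil-like, all filtered and macrophage or monocyte-like cells under every alternative run, and 5 to 7 members stayed at least 2-fold higher in neutrophil-like cells. Most movement was in size. In neutrophil-like cells the median was 6.12 without the upper UMI limit, 5.1 with median-of-ratios scaling, 3.94 with 30 principal components, 3.74 and 4.36 at resolutions 0.5 and 2.0, 4.59 with classes from each cell's marker UMIs, 3.83 without cells holding another class's marker, 4.59 without granule-gene clusters and 3.76 with the members in the clustering. Restriction to the cluster with at least 100 cells of each library, chosen after seeing the data, gave 2.96. In all filtered cells it was 13.6 with no quality filter, 13.7 without the upper limit, 3.44 as a mean over cells, 7.2 without mitochondrial and ribosomal protein genes, 3.43 thinned, 7.8 without neutrophil-like cells holding another class's marker and, as an alternative not planned beforehand, 7.83 without shared barcodes. In macrophage or monocyte-like cells it was 3.37 without the upper limit, 4.69 thinned, 5.1 with 30 principal components, 2.04 at resolution 0.5, 2.23 with another seed, 9.01 from marker UMIs, 2.0 with the members in the clustering and 3.29 for cells with a neutrophil marker UMI. The share of genes at least 2-fold higher was 10.1% with median-of-ratios scaling, 10.1% for genes with at least 200 UMIs and 10.0% for genes seen in both libraries. The median difference in detection, 17.7 percentage points, was 10.3 at 2 or more UMIs, 29.1 without thinning and 22.6 in the single cluster. The cause of these shifts was not tested.
Among single ratios under the alternatives, 346 stayed within their counting interval, 131 moved beyond it, and 12 whose main interval excluded 1 crossed to the other side of 1. Ratios whose interval held 1 are not among the 12. Of these, Hp in neutrophil-like cells (0.956) was above 1 in 5 of 19 alternatives, up to 2.05, and Wfdc21 in fibroblast-like cells (1.38) was below 1 in 2 of 17. Hp over all filtered cells turned to 0.795 as a mean over cells and 0.804 thinned. Wfdc17 in macrophage or monocyte-like cells turned to 1.29 without the upper UMI limit, 1.17 as a mean over cells, 1.08 thinned, 1.05 with 30 principal components, 1.26 with classes from marker UMIs and 1.03 without the top 5% of cells by UMIs. Wfdc21 there turned to 0.728 at resolution 0.5. In fibroblast-like cells Slpi turned to 0.729 as a mean over cells and 0.659 thinned, and Wfdc17 to 1.56 as a mean over cells. The cause was not tested.
No paired analysis was possible because each genotype has 1 library. Counting error is wide for ratios on few UMIs, such as Saa3 in clusters 1 and 4 and Wfdc21 and Chil1 in fibroblast-like cells. Variation between mice or pools cannot be seen in these data.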
